A study of Mus musculus with 7 samples.

Results

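Slpi, Lcn2 and Wfdc2, genes for small secreted proteins of epithelial defence, were followed in 7 RNA-seq libraries of mouse precision-cut liver slices (PCLS). Slpi was selected on its log2 fold change between slices with and without valproic acid sodium salt (VPA) in these same libraries, where it was much higher with VPA, and Lcn2 and Wfdc2 were placed beside it as secreted antiprotease and antimicrobial genes of injured epithelium. The 3 genes were found in the count table by their Ensembl identifiers, as 3 of 55487 genes. The slices, 250 µm thick and 3 mm across, came from the livers of healthy adult male Balb/c mice. They were kept for 3 days in Williams' medium without VPA (CTR, 3 libraries) or with 2.5 mM VPA (4 libraries). The labels give no genetic change in either group. VPA inhibits histone deacetylases, and the study added it to limit the fibrogenic reaction that slicing and culture set off. The question asked here was what the 3 defence genes did in the slices with VPA.

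Secretory leukocyte protease inhibitor (SLPI, from Slpi) is made at mucosal surfaces and in skin, where it blocks serine proteases released by neutrophils and mast cells and also acts on microbes. WFDC2 carries the same cysteine-rich WAP fold as SLPI and is made by many ductal epithelia. Lipocalin 2 (NGAL, from Lcn2) binds bacterial siderophores and so keeps iron from microbes. In liver, Lcn2 is known as an acute-phase gene of hepatocytes that responds to interleukins through NF-kB and C/EBP factors.

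The libraries held 1743675 to 4773750 counts on genes in CTR and 1400887 to 3102450 in VPA. Library preparation captured the 3′ ends of messenger RNAs, so that a gene's counts do not grow with its length. Levels are given in CPM, counts scaled to the size of each library after TMM normalization. The study's methods count each liver as a biological repeat, and its figure of these RNA-seq cultures gives n = 4. However, the labels do not say which libraries came from separate animals. The errors and p-values therefore describe the spread between these libraries, which may in part be technical. Summed markers of hepatocytes, the main cell of the liver, lay between 2852 and 10208 CPM over all libraries. Among the genes tested, 626 of 6392 with a mean of at least 20 CPM (9.79%) were listed at 0 in at least 1 library. Between 21 and 74 of them were at 0 in a CTR library, and between 99 and 332 in a VPA library. This reached genes that all cells use. Psmb2, a proteasome subunit named here after its values were seen, had 37 to 115 counts in 6 libraries and 0 in VPA replicate 4. A gene with no count is therefore described as listed at 0.

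All 3 genes lie on mouse chromosome 2 (GRCm38). Slpi (ENSMUSG00000017002) runs from 164354070 to 164389095 on the − strand, with 3 annotated transcripts of up to 4 exons. A microRNA gene, Mir7678, lies within it on the same strand and had no count. Wfdc2 (ENSMUSG00000017723) runs from 164562413 to 164568510 on the + strand, with 5 transcripts. Its RefSeq start lies 206 kb from that of Slpi, in the same cluster of WAP-domain genes. Lcn2 (ENSMUSG00000026822) runs from 32384633 to 32388252 on the − strand, far from the other two, with 6 transcripts. No annotated gene overlaps Lcn2 or Wfdc2.

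The stretch just before the Slpi start is shown because Slpi differed more between the groups than Lcn2 or Wfdc2. It comes from RefSeq's GRCm38.p6, covers the 250 bases before the RefSeq start on the − strand (chr2:164356508-164356757) and holds no annotated exon. This start is also the 5′ end of an annotated transcript of the gene model, but another transcript begins upstream at 164389095, and the window lies in an intron of that one. Capitals mark matches to the motifs searched.
Slpi promoter: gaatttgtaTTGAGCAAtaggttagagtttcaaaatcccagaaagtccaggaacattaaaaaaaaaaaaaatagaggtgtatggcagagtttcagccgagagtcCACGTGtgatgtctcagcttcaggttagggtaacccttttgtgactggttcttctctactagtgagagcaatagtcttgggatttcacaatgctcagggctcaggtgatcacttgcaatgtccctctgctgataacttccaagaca
Searched on both strands, the window held a C/EBP motif (TTGCNNAA, here as its reverse complement) beginning 241 bases before the start, and an E-box (CACGTG) beginning 146 bases before it. The 250 bases upstream of 27025 genes held the first in 9.55% and the second in 6.05%. No match was found in the Slpi window to the NF-kB consensus (in 7.01% of windows), the TATA box (TATAAA, 13% of windows), AP-1 (TGANTCA, 6.87%), the core of the cAMP response element (TGACG, 17.9%) or the GC box (GGGCGG, 32.9%). The Lcn2 window held a C/EBP match and a GC box, and the Wfdc2 window a GC box, and neither matched the NF-kB consensus. Unlike the Slpi window, these windows hold annotated exon, 197 of the 250 bases for Lcn2 and 146 for Wfdc2. These are matches of letters only.

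Slpi was about 10 times higher in the slices with VPA, and every VPA library lay above every CTR library. The Slpi counts were 31, 122 and 34 in CTR replicates 1 to 3 and 327, 428, 147 and 339 in VPA replicates 1 to 4. As levels these were 12.2, 24.0 and 18.6 CPM in CTR and 213, 132, 118 and 256 CPM in VPA. The mean level went from 18.3 ± 5.92 CPM (SD, n = 3) to 180 ± 66.0 CPM (SD, n = 4), a ratio of 9.82, and the log2 fold change fitted with edgeR was 3.28 with a standard error of 0.39. In a bulk sample, more RNA per cell and more cells of a type that makes it cannot be told apart. No p is given for Slpi, Lcn2 or Wfdc2 between the groups, because this contrast was known when they were chosen.

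**Figure D1:**
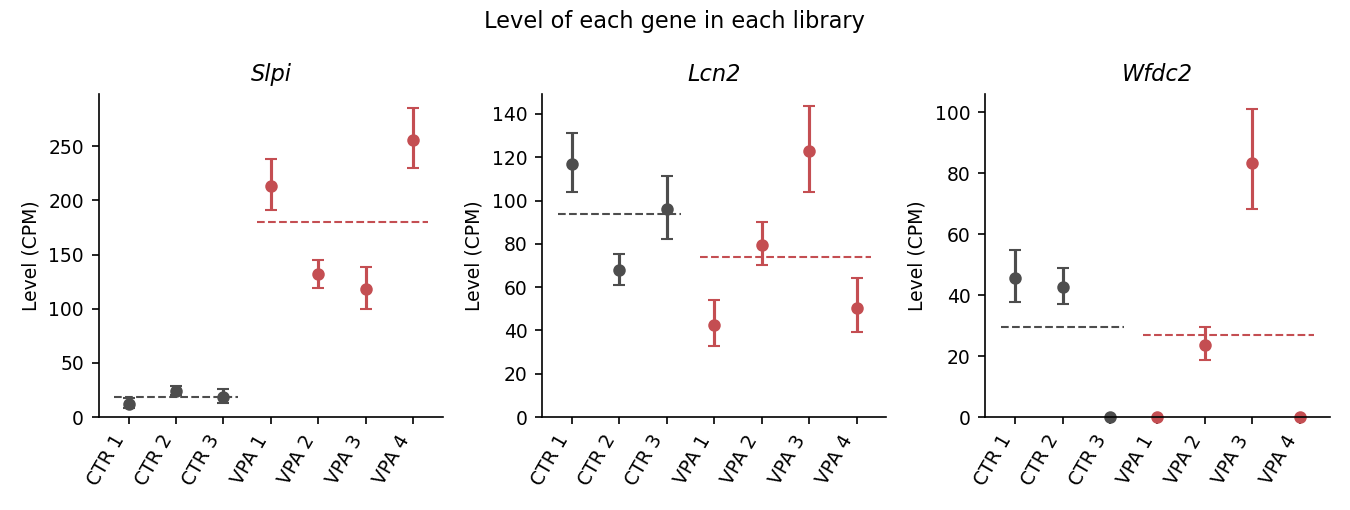
Level of Slpi, Lcn2 and Wfdc2 in CPM (vertical axes from 0, on a scale of their own) in each of the 3 CTR (grey) and 4 VPA (red) libraries; bars are exact Poisson 95% intervals of the count (counting error only; none is drawn at a count of 0) and dashed lines are group means. Slpi sits between 12.2 and 24.0 CPM in CTR and between 118 and 256 CPM in VPA, Lcn2 overlaps between the groups, and Wfdc2 is at 0 in CTR replicate 3 and in VPA replicates 1 and 4.

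Within the transcriptome of each library, the place of Slpi moved from the lower part of the genes tested to the upper end. It exceeded 25.1% to 46.8% of the 10876 genes in the CTR libraries and 88.0% to 95.7% of them in the VPA libraries. Relative to the mean, the spread between libraries was alike, with a coefficient of variation of 32.4% in CTR and 36.7% in VPA. Within VPA, replicates 1 and 4 had the highest levels and replicates 2 and 3 the lowest. Among the 483 genes whose VPA libraries all lay above the CTR libraries (4.44% of those tested), Slpi had the seventh highest log2 fold change of those with at least 5 CPM in the higher group. The value just above it was that of Npy, a neuropeptide gene, at 3.30, and the one just below was that of Asap3, a regulator of ARF proteins, at 3.09.

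**Figure D2:**
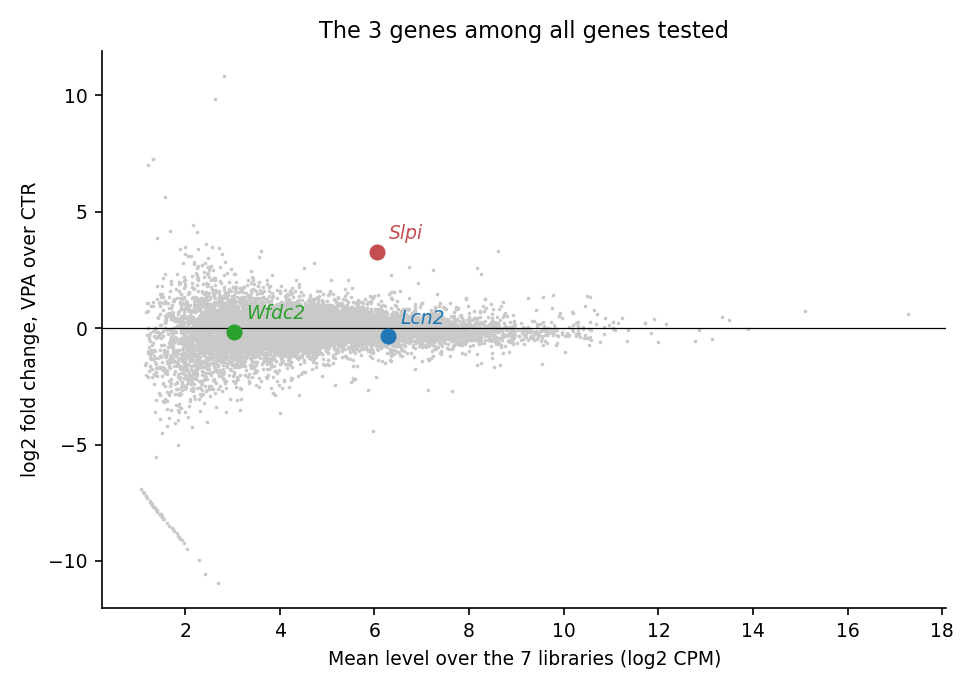
Log2 fold change of VPA over CTR (vertical axis) against the mean log2 CPM over the 7 libraries (horizontal axis) for all 10876 genes tested (grey), with the 3 defence genes coloured. Slpi lies at 3.28, above nearly all genes of its level, while Lcn2 at −0.34 and Wfdc2 at −0.16 lie within the cloud.

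Lcn2 overlapped between the groups. Its counts were 297, 344 and 175 in CTR replicates 1 to 3 and 65, 259, 153 and 67 in VPA replicates 1 to 4, which gave levels of 117, 67.8 and 95.9 CPM in CTR and 42.4, 79.6, 123 and 50.6 CPM in VPA. The highest level of all was in VPA replicate 3, and the lowest levels were in VPA replicates 1 and 4. The mean was 93.6 ± 24.7 CPM (SD, n = 3) in CTR and 73.9 ± 36.3 CPM (SD, n = 4) in VPA. The log2 fold change was −0.34 with a standard error of 0.39, a difference within the spread between libraries. Without VPA replicate 3 it was −0.69. Unlike Slpi, Lcn2 was already well counted without VPA, where it exceeded 77.3% to 87.3% of the genes tested. With VPA it exceeded 65.1% to 88.7% of them.

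Wfdc2 was either well counted or listed at 0, in both groups. Its counts were 116, 217 and 0 in CTR replicates 1 to 3 and 0, 77, 104 and 0 in VPA replicates 1 to 4. In the libraries where it was counted, the level was 45.7 and 42.8 CPM in CTR and 23.7 and 83.5 CPM in VPA, with a mean of 48.9 CPM. At that mean, the libraries at 0 would have held 64.8 to 89.2 counts, whereas a count of 0 allows 3 counts, or 1.64 to 2.27 CPM (counting error only). The log2 fold change of −0.16 has a standard error of 1.79 and no stable direction, since it ran from −1.82 without VPA replicate 3 to 0.28 without CTR replicate 1, and was −1.92 with limma-voom. The same 3 libraries were at 0 in 17 of the genes tested, Wfdc2 among them, of which 5 had a mean of at least 20 CPM (Gdf15, Hmces, Prmt1, Serinc2 and Wfdc2). In all, 38 genes of that level were at 0 in exactly 3 libraries.

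The 3 genes thus had 3 different patterns over the same libraries. Within VPA, the libraries highest in Slpi (replicates 1 and 4) were those lowest in Lcn2, and they were also those with Wfdc2 at 0. The number of Slpi counts per Lcn2 count, which does not depend on normalization, was 0.104, 0.355 and 0.194 in CTR replicates 1 to 3 and 5.03, 1.65, 0.961 and 5.06 in VPA replicates 1 to 4. As an account of likeness, the log2 CPM of each gene was centred on its own mean, and the root mean square (RMS) difference between profiles was taken over the 7 libraries. It was 2.01 between Slpi and Lcn2, where the median from Slpi to all genes tested was 1.79. It was 3.77 between Slpi and Wfdc2, and 2.57 between Lcn2 and Wfdc2, where the median from Lcn2 was 0.77. With a threshold of 0.05 on edgeR's adjusted p, 0.00919% of all genes were called, and none of the 3 genes was among them. That contrast chose Slpi, so nothing is read from this count.

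The genes whose profile came nearest to Slpi were Apoa4 (RMS difference 0.59), an apolipoprotein of intestine and liver, Creb3l3 (0.62), a membrane-bound transcription factor of liver and intestine, and Iglon5 (0.63), Adora1 (0.66) and Acot4 (0.66). Apoa4 had 4.73 to 15.4 CPM in CTR and 52.2 to 84.3 CPM in VPA libraries. Adora1, an adenosine receptor, had 6.30 to 12.8 CPM in CTR and 32.9 to 42.4 CPM in VPA. Acot4, an acyl-CoA thioesterase of peroxisomes, had 15.4 CPM on average in VPA and 0 in CTR replicate 3. All 5 were chosen for their likeness to Slpi, so that their own difference between the groups is no result. Nearest to Lcn2 were Nup88 (0.09), a nuclear pore protein, Slc39a13 (0.15), a zinc transporter, Mtx2 (0.16), Mib1 (0.17) and Numa1 (0.20), which all had their highest level in VPA replicate 3 or CTR replicate 1 and their lowest in VPA replicate 1 or 4. Nearest to Wfdc2 were Hmces (0.50), Prmt1 (0.51), Gss (0.56), Gdf15 (0.58) and Serinc2 (0.66), and each was at 0 in the same 3 libraries as Wfdc2.

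The other WAP-domain genes of the cluster around Slpi and Wfdc2 were listed at 0. Within 300 kb of either gene the table holds 56 others, 45 of them protein-coding, and 39 were listed at 0 in every library. All 13 genes named Wfdc in this window besides Wfdc2 were among those at 0, as were the seminal vesicle genes (Svs) that lie between Wfdc15b and Slpi. A count of 0 in this table is no proof of silence, since Pltp, a lipid transfer protein that liver is known to make, was listed at 0 as well. Besides Wfdc2, 8 neighbours were counted in at least 4 libraries, and their log2 fold changes ran from −0.66 to 0.33. Sdc4, a cell surface proteoglycan and the nearest of them, lay 87.4 kb from the Slpi start. It had 117 ± 54.0 CPM (SD, n = 3) in CTR and 126 ± 18.7 CPM (SD, n = 4) in VPA, with a log2 fold change of 0.12. Sys1, at 100 kb, had a value of 0.33, Dbndd2 0.17, Ctsa 0.29, Stk4 0.02, Snx21 −0.53, Tomm34 −0.38 and Dnttip1 −0.66. None of these 8 had groups without overlap, which 11.9% of all genes tested had. Ube2c, a ubiquitin-conjugating enzyme of mitosis, had 4.73 to 9.86 CPM in the CTR libraries and was listed at 0 in all VPA libraries, and the filter on low counts kept it out of the test. Zswim1 was the reverse, listed at 0 in all CTR libraries and at 5.88, 13.8, 0 and 6.80 CPM in VPA replicates 1 to 4, and it entered the test only through its VPA libraries, so no p is given. Pigt, an enzyme subunit of GPI anchor attachment, had 2.56 to 5.48 CPM in CTR and was at 0 in VPA. Matn4, the gene next to Slpi, was counted in CTR replicate 1 (1.18 CPM) and in VPA replicates 3 (8.83 CPM) and 4 (8.31 CPM) alone.

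**Figure D3:**
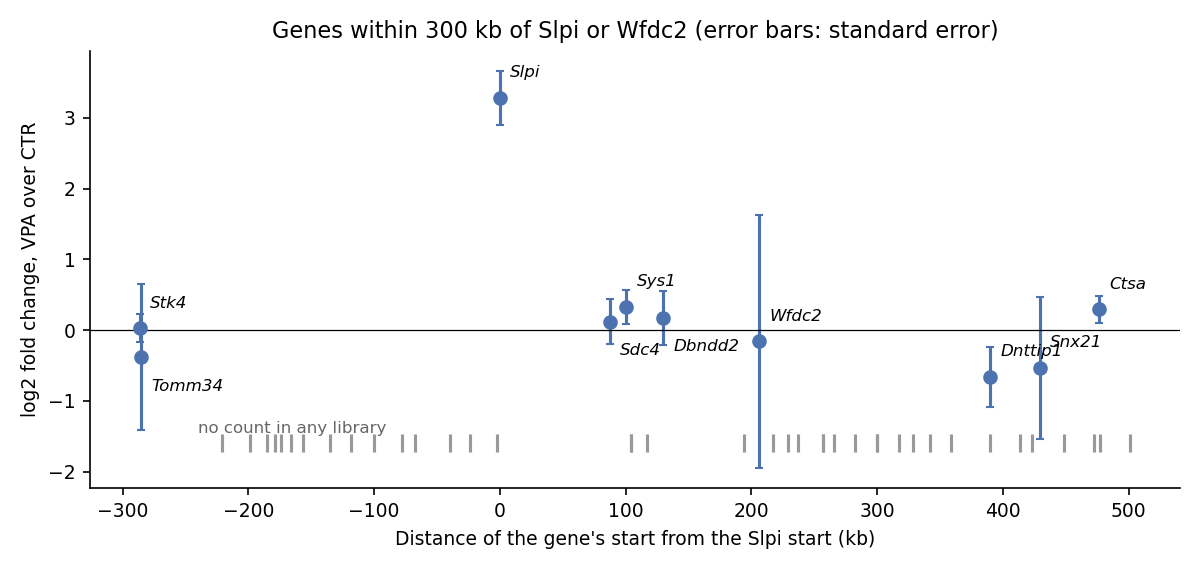
Log2 fold change of VPA over CTR with its standard error (vertical axis) for tested genes counted in both groups within 300 kb of Slpi or Wfdc2, against the distance of each gene's start from the Slpi start in kb; grey ticks are genes listed at 0 in every library. Slpi lies at 3.28, and the 8 neighbours plotted besides Wfdc2 lie between −0.66 and 0.33; Zswim1, at 0 in all CTR libraries, is not plotted.

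Partners and upstream genes of these 3 proteins, genes of like function or family, acute-phase genes and genes of injured epithelium were taken from 8 lists. Together the lists hold 208 genes besides Slpi, Lcn2 and Wfdc2. Of these, 115 were counted highly enough to be tested, and 59 were listed at 0. In the VPA libraries 45 were higher and 70 lower, with a median log2 fold change of −0.16 against −0.06 over all genes tested, of which 4982 were higher and 5894 lower. None passed an adjusted p of 0.05 in edgeR's test, where 0.00919% of all genes did. DESeq2, which called 1.01% of all genes with an adjusted p there, called 1 of them higher (0.256% of all genes) and 6 lower (0.754%). These were Ctsl, and Anxa3, Cldn3, Cldn4, Mmp9, Hp and Sox4. Mmp9, at 0 in every VPA library, entered only through its CTR counts and had to differ. With an unadjusted edgeR p below 0.05, 18 of the 115 passed (15.7%, against 8.28% of all genes), 5 of them higher and 13 lower (3.65% and 4.62% of all genes). With limma-voom, 30 list genes and 1642 of all genes had an unadjusted p below 0.05. In edgeR with no filter on low counts the numbers were 28 and 1673, and without CTR replicate 1 they were 16 and 539. With no filter, list genes outside the 115 enter the test, and leaving out a library changes which genes pass the filter. These numbers therefore have no common base and are not compared with each other or with the shares above.

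The other protease inhibitors form a list of 35 genes, of which 17 were tested and 12 were at 0. With VPA, 11 had a higher and 6 a lower value, with log2 fold changes between −0.78 and 1.11 and a median of 0.12. None had an unadjusted edgeR p below 0.05 and none had groups without overlap, against 8.28% and 11.9% of all genes, so that a count of 0 in 17 is near the general share. The closely related serpin genes of this list may share reads.

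Among the proteases and partners linked to SLPI, its classical targets were not counted. Elane (neutrophil elastase) and Ctsg (cathepsin G) were listed at 0 in every library. Grn, the precursor progranulin that SLPI is known to shield from elastase, was abundant and overlapped between the groups, with 612 ± 98.9 CPM (SD, n = 3) in CTR and 569 ± 214 CPM (SD, n = 4) in VPA. Ctsl, a lysosomal cysteine protease of the kind known to cleave SLPI, had 634, 375 and 542 CPM in CTR replicates 1 to 3. It had 1055, 1476, 2172 and 886 CPM in VPA replicates 1 to 4. The groups did not overlap, and the log2 fold change was 1.43 with a standard error of 0.35. It missed the threshold in edgeR's test (adjusted p = 0.32) and passed it in DESeq2 (adjusted p = 0.00755). Ctsb and Ctss, cathepsins known to cleave SLPI as well, overlapped between the groups, both with a log2 fold change of 0.15 (adjusted p = 0.903 and 0.937 from edgeR). Anxa2, an annexin that binds SLPI at the cell surface, had 581 ± 224 CPM in CTR and 274 ± 111 CPM in VPA, and the groups overlapped. Its log2 fold change was −1.09 with a standard error of 0.38 (adjusted p = 0.529 from edgeR). With the slice culture number of the labels as a block, it was −0.88 with a standard error of 0.13 (adjusted p = 0.494 from edgeR). Of the 6 genes tested on this list, 3 had a higher and 3 a lower value with VPA.

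The receptors of NGAL named here were barely counted. Lrp2 (megalin) was listed at 0 throughout, and Slc22a17, another receptor, had 11 counts in CTR replicate 1, 5 in VPA replicate 4 and 0 in the other libraries. Mmp9, a gelatinase that NGAL binds and protects, had 24, 50 and 10 counts in CTR replicates 1 to 3 and 0 in all 4 VPA libraries. With the VPA level set at 3 counts per library, the CTR level of 8.26 CPM was at least 4.38-fold higher, a bound that covers counting error only and not the zeros that well counted genes also show in this table. The filter on low counts kept Mmp9 out of edgeR's test, and no p is given since it could enter a test only through its CTR libraries. Bdh2, a dehydrogenase linked to the mammalian siderophore, had 8.42 ± 4.39 CPM (SD, n = 3) in CTR and 16.8 ± 3.63 CPM (SD, n = 4) in VPA. Its groups did not overlap (log2 fold change 0.99, adjusted p = 0.725 from edgeR). The rest of the list, iron and heme carriers such as ferritins and transferrin, brought it to 8 genes tested, 4 higher and 4 lower, with a median of −0.06 and no unadjusted edgeR p below 0.05 (8.28% of all genes).

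The tested upstream genes of Lcn2 named here overlapped between the groups, but for Tnfrsf1b. Nfkbiz, the nuclear IκB protein that Lcn2 induction needs, had 26.8, 29.6 and 29.6 CPM in CTR replicates 1 to 3 and 26.1, 30.7, 38.5 and 29.5 CPM in VPA replicates 1 to 4. Cebpb had 55.0 ± 8.01 CPM (SD, n = 3) and 64.8 ± 15.1 CPM (SD, n = 4), and Cebpd 14.8 ± 7.17 CPM and 14.6 ± 1.68 CPM. The adjusted p of these 3 genes from edgeR lay between 0.908 and 0.996. Tnfrsf1b, a TNF receptor, had 23.5 ± 6.25 CPM in CTR and 35.8 ± 5.51 CPM in VPA without overlap (log2 fold change 0.61, adjusted p = 0.65 from edgeR). Of the 30 genes tested from the NF-kB, interleukin and C/EBP list, 10 were higher in VPA and 20 lower, and the median log2 fold change was −0.27. None had an unadjusted edgeR p below 0.05 (8.28% of all genes). Il6, Il1b and Socs3 of this list were too low to be tested. Il6 had 1.58 to 2.19 CPM in the CTR libraries, near the floor of 3 counts, and 0 in all VPA libraries. Socs3 (11.4 and 11.0 CPM) and Il1b (3.55 and 4.39 CPM) were counted in CTR replicates 1 and 3 alone. Tnfaip3, also untested, was counted in both groups.

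The acute-phase genes are the company Lcn2 keeps in liver. Of 21 tested, 7 were higher and 14 lower, and the median was −0.28. An unadjusted edgeR p below 0.05 was found for Mt2, a metallothionein (log2 fold change 1.31), among the former and for 4 of the latter, against 3.65% and 4.62% of all genes. These 4 were Hp, the haemoglobin-binding haptoglobin (−2.68), Saa1 (−2.16), Cp, the copper carrier ceruloplasmin (−1.61), and Saa4. Hp, Saa1, Cp and Mt2 overlapped between the groups, and reads of Saa1 may be shared with its near-identical copies. Between libraries labelled with the same slice culture number (71, 72 or 74), Hp, Saa1 and Cp were lower and Mt2 higher with VPA each time. The labels do not say that a number marks 1 liver. Saa4, an amyloid A protein made constitutively, had 20.9, 26.4 and 33.4 CPM in CTR replicates 1 to 3. It had 10.4, 14.5, 15.3 and 12.1 CPM in VPA replicates 1 to 4. The groups did not overlap, and Saa4 had a log2 fold change of −1.04 and a standard error of 0.34 (adjusted p = 0.487 from edgeR). Among other lipocalins and the related fatty acid binding proteins, 1 of 10 was higher in VPA and 9 lower, and the median was −0.60. Fabp5, an epidermal fatty acid binding protein, had 76.9 ± 16.0 CPM (SD, n = 3) in CTR and 50.9 ± 4.79 CPM (SD, n = 4) in VPA without overlap (adjusted p = 0.492 from edgeR).

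Of the antimicrobial and mucosal genes, 22 of 35 were listed at 0, among them S100a8 and S100a9, the calprotectin subunits. Of the 8 tested, 6 were higher in VPA and 2 lower, and the median log2 fold change was 0.55. An unadjusted edgeR p below 0.05 was found for 2 of the higher genes, Pigr, the receptor that carries IgA across epithelia (1.32, with overlap), and Rnase4, and for 0 of the lower genes, against 3.65% and 4.62% of all genes. Rnase4, a secreted ribonuclease, had 36.6, 35.5 and 30.7 CPM in CTR replicates 1 to 3 and 61.4, 68.3, 71.5 and 52.1 CPM in VPA replicates 1 to 4. The groups did not overlap, and the log2 fold change was 0.88 with a standard error of 0.20 (adjusted p = 0.295 from edgeR). Rnase4 overlaps Ang on the same strand, so that reads of both could be shared.

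Of 32 genes of ductular and injured epithelium on the list, 20 were tested, 6 of them higher in VPA and 14 lower, and the median log2 fold change was −0.35. An unadjusted edgeR p below 0.05 was found for Ereg, an epidermal growth factor receptor ligand (log2 fold change 1.49), among the former and for 7 of the latter, against 3.65% and 4.62% of all genes. Besides the 3 genes described next, these were the keratins Krt8 (−1.27) and Krt18 (−0.65), the transcription factor Sox4 (−0.79) and the galectin Lgals3 (−0.67). In 6 of the 20 genes tested every VPA library was below every CTR library, against 7.41% of all genes. In 1, Ereg, every VPA library was above (36.6 to 128 CPM, with 22.5 to 28.0 CPM in CTR), against 4.44% of all genes. Cldn4, a tight junction claudin, had 197, 167 and 105 CPM in CTR replicates 1 to 3. It had 18.3 to 45.8 CPM in the VPA libraries. Its log2 fold change was −2.11 with a standard error of 0.35 (adjusted p = 0.142 from edgeR and 9.6e-05 from DESeq2). Cldn3, its neighbour in the family and in the genome, went from 136 ± 18.2 CPM (SD, n = 3) to 48.2 ± 10.1 CPM (SD, n = 4), a log2 fold change of −1.49 (adjusted p = 0.112 from edgeR and 6.3e-05 from DESeq2). Anxa3, an annexin of ductular and progenitor cells, had 197, 102 and 210 CPM in CTR and 21.5, 16.6, 41.7 and 29.5 CPM in VPA. Its log2 fold change was −2.65, and it overlaps Gm42603 on the same strand (adjusted p = 0.112 from edgeR and 4.4e-07 from DESeq2). All 3 genes were separated without overlap, in the direction opposite to Slpi, and all 3 passed the threshold in DESeq2, and in edgeR where genes needed at least 10 counts in every library. Anxa3 also passed in edgeR with no filter on low counts (adjusted p = 0.0229).

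**Figure D4:**
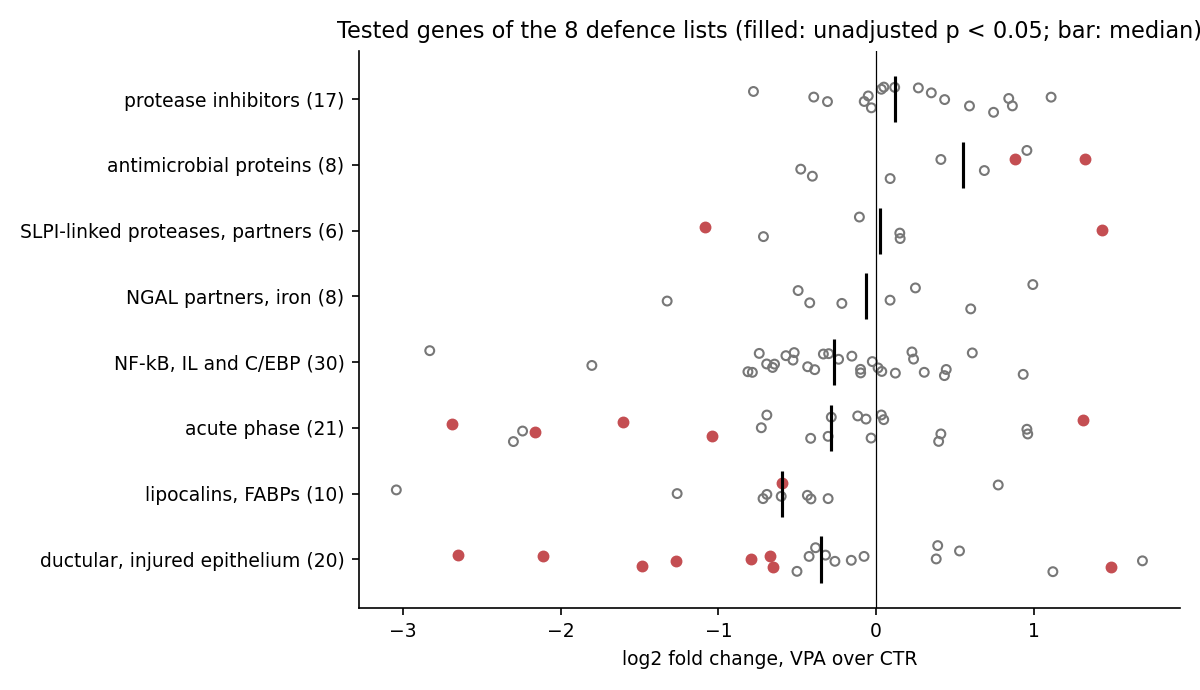
Log2 fold change of VPA over CTR (horizontal axis) for the tested genes of the 8 defence lists, each point a gene, with the number tested in brackets; filled points have an unadjusted edgeR p below 0.05 and black bars are medians. The medians run from −0.60 (lipocalins) to 0.55 (antimicrobial proteins).

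The defining markers of bile duct cells overlapped between the groups. Sox9 had 89.0 ± 16.2 CPM (SD, n = 3) in CTR and 117 ± 26.0 CPM (SD, n = 4) in VPA (adjusted p = 0.748 from edgeR). Epcam had at most 14.3 CPM in any library and was at 0 in VPA replicate 2. Krt7 was at 0 in CTR replicates 1 and 3 and in VPA replicate 2. Krt19 was listed at 0 in all CTR libraries and had 14.1 and 6.80 CPM in VPA replicates 2 and 4. Summed over 12 markers, of which 7 were tested (3 higher, 4 lower), the level was 426 to 731 CPM in CTR and 275 to 792 CPM in VPA, so that the groups overlapped. Epithelial cells of the liver surface, the mesothelium, left few counts. None of its 10 markers was tested. Msln (15 counts in all) and Upk3b (5 counts) had no count in VPA, while Wt1 reached 19.6 CPM in VPA replicate 1 and 5.12 CPM in CTR replicate 2, and Gpm6a was counted in every library, at 1.61 to 7.07 CPM. Muc16 and Bnc1 were listed at 0 throughout, and the sum was 6.70 to 24.6 CPM in CTR and 1.61 to 28.1 CPM in VPA. Of 12 neutrophil markers 10 were listed at 0 in every library, and the sum did not exceed 2.19 CPM. That does not show that neutrophils were missing, since Adgre1 and Marco, of resident macrophages, were at 0 as well, while all 12 macrophage markers together gave 315 to 440 CPM in CTR and 292 to 560 CPM in VPA (7 tested, 4 higher and 3 lower). Summed hepatocyte markers overlapped between the groups, with 4335 to 9238 CPM in CTR and 2852 to 10208 CPM in VPA (9 of 11 tested higher, 2 lower). Endothelial and stellate cell markers were the lists whose summed level did not overlap. The 10 endothelial markers summed to 309 to 386 CPM in CTR and 115 to 283 CPM in VPA (8 tested, 1 higher and 7 lower), and the 10 stellate markers to 824 to 1486 CPM and 590 to 761 CPM (10 tested, 3 higher and 7 lower). Of the 7 lower endothelial genes, 1 was at 0 in every VPA library (log2 fold change −8.19, no measured fold). It entered the test only through its CTR counts and had to be lower. The stellate difference rests on Col1a1, a collagen gene, without which the other 9 markers summed to 309 to 605 CPM in CTR and 351 to 500 CPM in VPA and overlapped. The endothelial sums overlapped without Cdh5 or without Stab1. These sums were taken after the data were seen. The part of these lists in the difference in Slpi was not tested.

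Slpi had a log2 fold change between 3.05 and 3.54 when each library was left out in turn, with the value of 3.54 reached without CTR replicate 2, and between 3.05 and 3.29 with other tools, normalizations, filters and blocks. Lcn2 lay between −0.69 and −0.15 when libraries were left out.

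**Figure D5:**
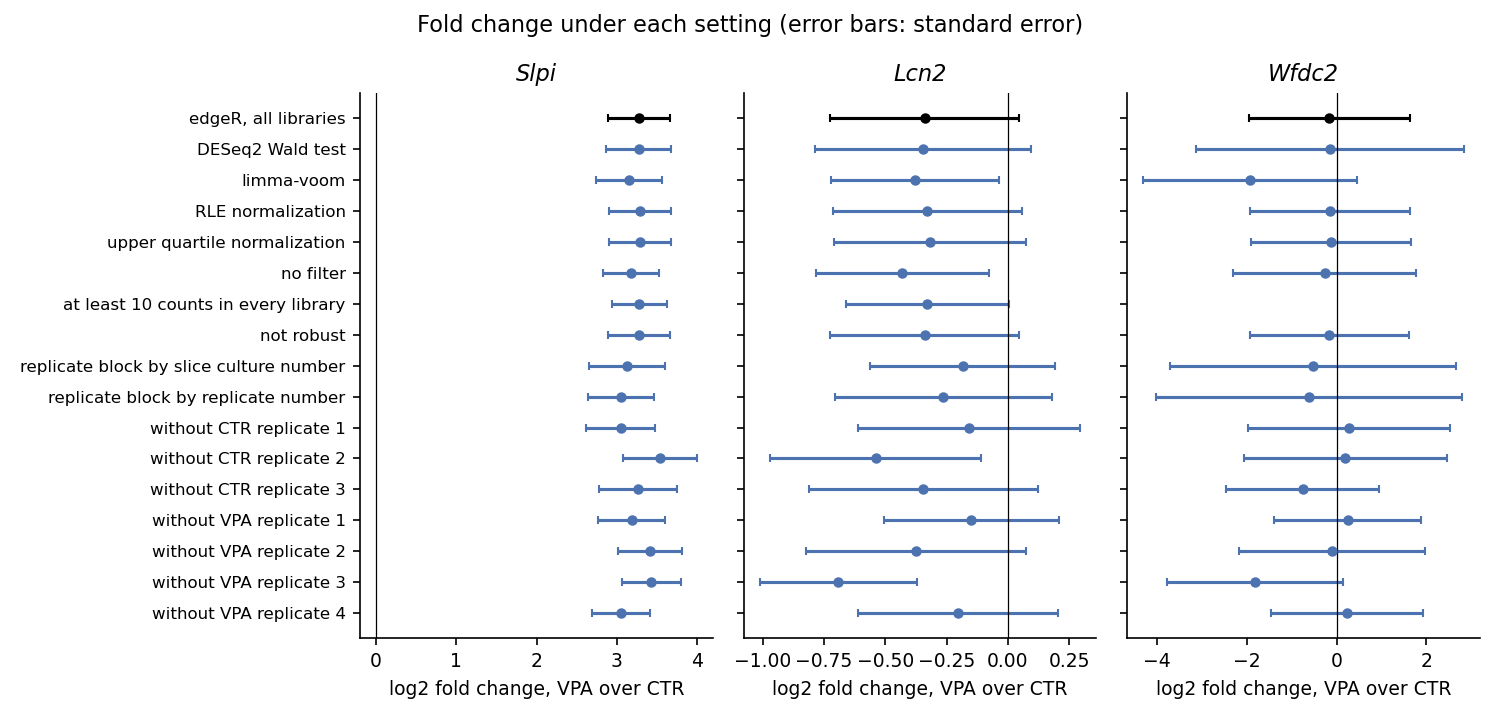
Log2 fold change of VPA over CTR with its standard error (horizontal axes, on different scales) for Slpi, Lcn2 and Wfdc2 under each setting of the analysis (rows; the setting reported in the text in black). Slpi stays between 3.05 and 3.54, Lcn2 below 0, and Wfdc2 crosses 0.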

How the data were processed

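The authors sequenced 3′ end libraries as single-end reads, checked and trimmed them, mapped them to GRCm38 with STAR, named StringTie for assembly, and deposited raw counts per Ensembl gene, 1 column per library. The counting program and its strand setting are not given in the sources used here. GENCODE M21 symbols matched 55227 of 55487 genes. Counts were tested with edgeR 4.0.16 in R 4.3.3 (TMM, filterByExpr, robust quasi-likelihood, condition as the only term, Benjamini-Hochberg over 10876 genes). The standard error is the log2 fold change divided by the square root of F. Log2 CPM values carry a prior count of 2. DESeq2 1.42.0, which the study used, limma-voom 3.58.1, other normalizations and filters, replicate blocks and leaving out each library were alternatives. The code was tested on simulated data. Library pairs within a group differed beyond sampling noise (chi-square per degree of freedom 13.0 to 24.3).

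The 3 genes, the 8 defence lists and 7 marker lists were chosen with earlier results of these data known and are from general knowledge. Named genes are fixed partners and markers, plus up to 3 genes per list with the smallest p, no overlap between the groups and a level of 5 CPM or more in 1 of them, 5 nearest profiles per gene, and neighbours counted in 4 or more libraries. Pltp, Psmb2, Ube2c, Zswim1, Pigt, Matn4, Ctsb, Ctss, Il6, Il1b, Socs3, Tnfaip3, Wt1, Gpm6a, Col1a1, Cdh5, Stab1, Mt2, Hp, Saa1, Cp, Pigr, Ereg, Krt8, Krt18, Sox4, Lgals3, Npy, Asap3, Mir7678, Adgre1, Marco, Muc16, Bnc1 and the Svs and Wfdc neighbours were named after their values were seen.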

Additional observations from a re-analysis of the deposited data

Results flagged for a closer look

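VPA replicate 2 had 3102450 counts on genes, far from the 1400887 to 1515954 of the other VPA libraries. In it Slpi had 132 CPM, within the VPA range. Slc22a17 had 3.78 CPM in VPA replicate 4 and was at 0 in the other VPA libraries, which rests on 5 counts. Cebpd had 12.1 CPM in VPA replicate 4, while the other VPA libraries lay between 15.3 and 15.7 CPM. These were the 3 of 33 sets of VPA values in which 1 library stood apart by Dixon's criterion, and chance alone flags a share of 0.05, or 1.65 sets. The CTR group, with 3 libraries, was not examined this way.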

How the results depend on the processing

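The Slpi and Lcn2 fold changes moved by less than the spread between libraries under every alternative, and Slpi stayed above and Lcn2 below 0 in all of them. With each library left out in turn, Slpi lay between 3.05 and 3.54, Lcn2 between −0.69 and −0.15 and Wfdc2 between −1.82 and 0.28. With limma-voom, Wfdc2 was at −1.92. With at least 10 counts in every library, Wfdc2 could not be fitted. In edgeR's test 1 gene was called (1 higher, 0 lower; Creb3l3) and 0 of the defence lists. Of these counts, DESeq2 gave 154 (39 higher, 115 lower) and 7 (1 higher, 6 lower), no filter gave 10 (2 higher, 8 lower) and 1 (0 higher, 1 lower), and at least 10 counts in every library gave 36 (17 higher, 19 lower) and 3 (0 higher, 3 lower); the cause was not tested. Leaving out each library in turn gave 0 to 2 genes (0 to 1 higher, 0 to 2 lower) and 0 of the defence lists. Among genes with an uncalled difference, Cebpd turned to 0.042 with limma-voom and Krt7 to −0.46, and Epcam moved from −0.42 to −2.93. With libraries left out, Cebpd ran from −0.33 to 0.39, Krt7 from −0.19 to 6.70 (5 fits; the upper value, without CTR replicate 2, is against a CTR group at 0 and is no measured fold), Grn from −0.36 to 0.056 and Epcam from −1.17 to 0.013. Depth limits the genes near 3 counts per library, such as Slc22a17 and Msln.

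Both groups hold slices numbered as culture 71, 72 and 74, and both use replicate numbers. Where a CTR and a VPA library had a culture in common, their deviations from the group means had correlations of 0.107 (culture 71), 0.026 (72) and 0.055 (74). Matched by replicate number, the correlations were −0.054 (number 1), 0.055 (2) and 0.107 (3). These numbers were not treated as pairs in the main test. With the replicate block by slice culture, Slpi had a log2 fold change of 3.13, Lcn2 −0.19 and Wfdc2 −0.52, and 0 genes were called (0 higher, 0 lower; 868 at an unadjusted p under 0.05). By replicate number the values were 3.05, −0.26 and −0.61, with 0 genes called (0 higher; 984 at an unadjusted p under 0.05). Cebpd turned to 0.045 and 0.16 under these blocks, Krt7 moved to 3.59 and 2.95, and Epcam to −0.82 and −1.96.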
